A study of Saccharomyces cerevisiae with 6 samples.

Results

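The promoter-proximal segment of the yeast 35S rRNA gene described here comprises positions 1 to 350 of the 5′ external transcribed spacer (ETS1), counted from the 5′ end of the transcript. Its members were chosen by coordinate alone and number 350 of the 6858 positions for which values were analysed. They lie at chrXII:467220-467569 on the minus strand of the R64 assembly, in the gene annotated as RDN37-2, and positions 1 to 5 carry the label of the 35S core promoter in the deposited annotation. Native elongating transcript sequencing (NET-Seq) was performed in *Saccharomyces cerevisiae*, in 3 libraries of the WT parent strain and 3 of the *rpa190-F1205H* strain. In the mutant, the largest subunit of RNA polymerase I (Pol I) has histidine in place of a phenylalanine of the trigger loop, and the mutant gene was carried on a plasmid in a strain whose chromosomal *RPA190* had been deleted. Both strains were grown at the same temperature as triplicate cultures, Pol I was immunoprecipitated, and the study's methods name a hemagglutinin tag on the Rpa135 subunit in the mutant. The sources used here do not say how many clones of the mutant were taken, and rRNA values do not show which *RPA190* allele a library carried.

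Pol I transcribes a single kind of gene, the 35S rDNA, and ETS1 is the first part of its transcript. ETS1 is not part of the ribosome: early assembly factors and the U3 small nucleolar RNA bind it while the polymerase is still transcribing, and it is cut away and degraded as the 18S rRNA matures. The trigger loop is a mobile element of the active site that closes over the incoming nucleotide during each addition cycle, and a read in NET-Seq marks the last nucleotide that a captured polymerase had added.

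The RNA sequences at the positions that the results turn on are printed first. Each line holds 10 nucleotides in lower case, then the 10 that end at the 3′ end, and then, after the capitals, the 5 nucleotides still to be added. All were taken from the base column of the deposited table (R64, chromosome XII, minus strand) and are written 5′ to 3′, with the last 10 incorporated nucleotides in capitals. The first set comprises positions that held less of the segment's reads in *rpa190-F1205H* than in WT.
position 98: uaaauggccuCGUCAAACGGuggag
position 102: uggccucgucAAACGGUGGAgagag
position 113: aacgguggagAGAGUCGCUAgguga
position 163: cagcguguuuAAUUGACAUGgguug
position 232: guuucuuuugCGUUUAACCUgaaca
position 336: caaagaauucAAACUUGGGGgaaug
The second set comprises positions that held more.
position 106: cucgucaaacGGUGGAGAGAgucgc
position 108: cgucaaacggUGGAGAGAGUcgcua
position 166: cguguuuaauUGACAUGGGUugaug
position 183: gguugaugcgUAUUGAGAGAuacaa
position 199: gagauacaauUUGGGAAGAAauucc
position 217: aaauucccagAGUGUGUUUCuuuug
position 296: cgaaggauuuGGUGGAUUACuagcu
position 342: auucaaacuuGGGGGAAUGCcuugu
The stretch from position 91 to 210 shows how closely the positions of both sets interleave, with positions 98, 102, 106, 108, 113, 144, 163, 166, 183, and 199 in capitals.
positions 91 to 210: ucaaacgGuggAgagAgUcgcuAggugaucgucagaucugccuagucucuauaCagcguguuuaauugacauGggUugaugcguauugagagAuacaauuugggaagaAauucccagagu

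The libraries held between 2028349 and 3687549 reads over the 35S gene. The segment received 35444, 28963, and 39095 reads in WT and 128166, 130226, and 151680 in *rpa190-F1205H*. These correspond to 1.26, 1.43, and 1.27% of the reads of each WT library and to 4.03, 4.13, and 4.11% of those of each mutant library, and the 95% Wilson limits, which cover counting error only, spanned 1.24 to 1.44% for WT and 4.01 to 4.15% for *rpa190-F1205H*. The mutant profile was therefore measured with more reads, with a median of 203 to 211 per position against 26 to 38 in WT. Spearman coefficients over the 350 positions were 0.958 to 0.975 between WT libraries, 0.989 to 0.993 between mutant libraries, and 0.800 to 0.830 between the strains. Libraries of 1 strain thus ranked the positions alike, and less alike across strains, although the replicates of each strain still differed by more than sampling noise, with a chi-square per degree of freedom of 1.93 to 2.19 in WT and 2.86 to 7.01 in the mutant. Almost no reads ended in the first nucleotides. Whether RNAs so short could be captured and aligned was not tested, so this does not measure the polymerase there. Positions 1 to 10 never held more than 2 reads in a library, and positions 1, 8, 9, and 10 were at 0 in all 6.

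Pol I occupancy of the segment, as normalized by the authors, was higher in *rpa190-F1205H* than in WT. The mean over positions was 35.9, 40.8, and 36.2 normalized reads (RPM, reads per 1000000 on the 35S gene) in the WT libraries, and 115, 118, and 118 in the mutant libraries. Every mutant library lay above every WT library, at 37.6 ± 2.74 against 117 ± 1.54 (SD, n = 3), a 3.11-fold difference (p = 0.1 by a two-sided exact permutation test, the floor for 3 against 3 libraries). The size of this difference rests on the denominator, which contains the mature rRNA sequences: with each library scaled to the same total over the 4 spacers, the means were 74.4 ± 3.07 and 78.3 ± 1.20. The spacers include the segment itself and were all higher in the mutant as deposited, so this scaling removes much of the difference by construction. With equal totals over the positions outside the spacers the means were 36.1 and 122, and with equal medians over the gene 40.1 and 110. Spacer scaling also moved the median log2 fold change of all tested positions of the gene from 0.05 to -1.48. Levels are therefore given as deposited, together with each position's share of the reads of the segment, which no scaling of the libraries can change. The profiles along the segment showed a few tall peaks in WT and a more continuous occupancy in the mutant.

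**Figure D1:**
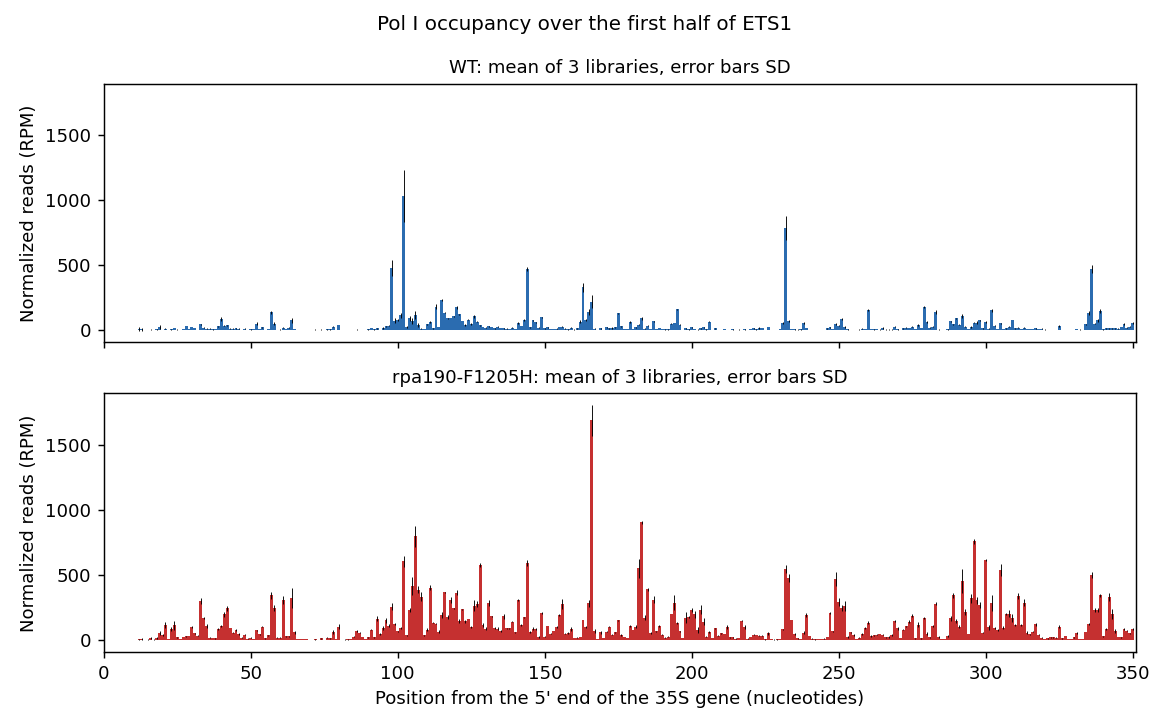
Normalized reads (RPM, linear axis) at each of the 350 positions in WT (upper panel) and *rpa190-F1205H* (lower panel), as the mean of 3 libraries with the SD as error bars. The tallest WT peaks are at positions 102 and 232, and the tallest mutant peak, at position 166, has a mean of 1690 RPM.

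Relative to the remainder of ETS1 (its positions downstream of 350), the segment was slightly less occupied in the mutant than in WT by the mean over positions. The log2 ratio of the mean over positions 1 to 350 to that over the downstream positions was 0.27, 0.23, and 0.23 in WT, and 0.03, 0.08, and 0.02 in *rpa190-F1205H*. The values did not overlap, with means of 0.24 ± 0.03 and 0.04 ± 0.03 (SD, n = 3; exact permutation test, p = 0.1), but the difference of -0.20 was -0.02 once the 4 most occupied positions were left out. With medians over positions the difference was -0.08 (exact permutation test, p = 0.5). With the segment extended to position 400 it was -0.02 (exact permutation test, p = 0.3). Against ETS2, the 3′ external spacer, the comparison went the other way. The log2 ratio to ETS2 was 1.32 ± 0.14 in WT and 2.51 ± 0.09 in the mutant, without overlap (p = 0.1, exact permutation test). For ITS2, the second internal spacer, no ratio was tested. Its mean level went from 34.0 to 75.9 RPM, 2.23-fold against 3.11-fold for the segment. The ratio to ITS1, the spacer after the 18S gene, was 1.18 ± 0.11 and 1.10 ± 0.05, a difference within the spread of the libraries (p = 0.4, exact permutation test). With medians over positions in place of means, the same ratio was 0.50 for WT and 1.21 for *rpa190-F1205H*, so that it was higher in every mutant library (p = 0.1, exact permutation test).

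Within the segment, the strains differed in where the reads lay. Positions 101 to 150 carried the largest part in both strains, at 33.0, 33.7, and 33.2% of the reads of the segment in WT, and 24.7, 26.0, and 26.0% in *rpa190-F1205H*. The share of positions 51 to 100 was also lower in the mutant, at 9.96 ± 0.508% in WT and 7.88 ± 0.527% in *rpa190-F1205H*. In contrast, positions 151 to 200 held 15.5 ± 0.342% in WT and 19.8 ± 0.422% in the mutant, and positions 251 to 300 held 12.7 ± 0.404% and 16.1 ± 0.071% (SD, n = 3). In each of these 4 windows the strains did not overlap (exact permutation test, p = 0.1, and 0.14 after Benjamini-Hochberg adjustment over 7 windows). The shares overlapped between strains in positions 201 to 250, at 10.9 and 10.6%, and in positions 301 to 350, at 13.4 and 14.2%. In positions 1 to 50 the share was 4.19 ± 0.902% in WT and 5.77 ± 0.271% in the mutant. There, WT replicate 1 stood above the other WT libraries, with 5.23% against 3.67% in both. Positions 12 and 13, singled out after their values were seen, contributed to that excess: position 12 held 25.2 RPM in WT replicate 1, and 2.96 and 0.65 in the others. The mean position of the reads was 181 ± 3.03 in WT and further downstream, 189.9 ± 1.59, in the mutant, without overlap between strains (p = 0.1, exact permutation test). This difference of 8.59 nucleotides was 5.32 without the 4 most occupied positions and 18.1 with the segment extended to position 400.

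**Figure D2:**
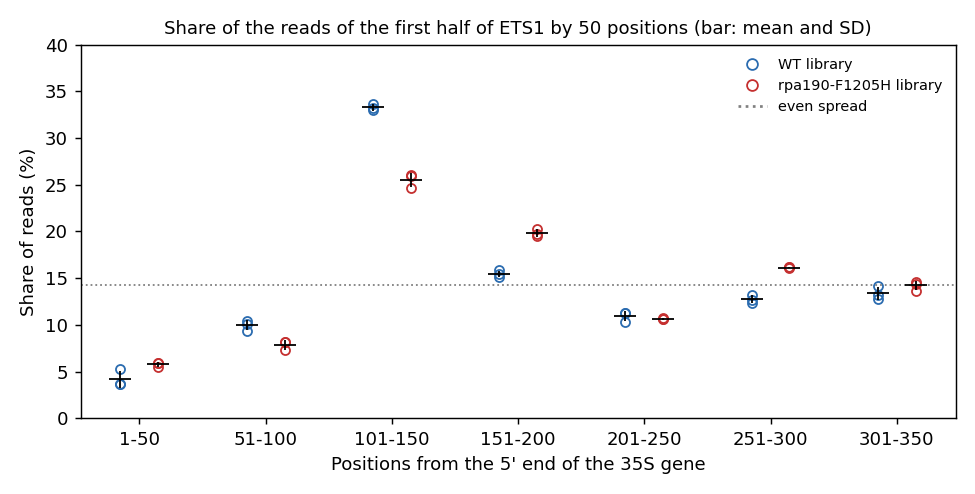
Share of the segment's reads (%) in 7 consecutive windows of 50 positions, with 1 point per library and bars for the mean and SD of 3 libraries per strain; the dotted line is an even spread. Positions 101 to 150 go from 33.3 to 25.6% and positions 151 to 200 go from 15.5 to 19.8%.

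The occupancy of the segment was less concentrated in *rpa190-F1205H*. The 10 most occupied positions of a library held 32.6, 34.6, and 32.5% of its segment reads in WT, and 18.05, 18.8, and 19.3% in the mutant. The lowest WT value was above the highest mutant value, with a difference of -14.5 percentage points between the means (exact permutation test, p = 0.1). The effective number of occupied positions, the exponential of the Shannon entropy of the shares, was 122 ± 5.05 (SD, n = 3) for WT and 183 ± 6.62 for *rpa190-F1205H*. Both differences remained in direction, without overlap, after reads were drawn down to the smallest library, at -14.4 percentage points and 59.7 positions. Without the 4 most occupied positions they were smaller, at -7.11 percentage points (23.7 and 16.6%) and 37.6 positions in place of 60.6, again without overlap. The highest peaks were also largely different ones. Of the 10 positions with the highest median in each strain, 4 were shared, namely 102, 144, 166, and 232, whereas any pair of WT libraries shared 9 or 10 and any pair of mutant libraries 9.

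**Figure D3:**
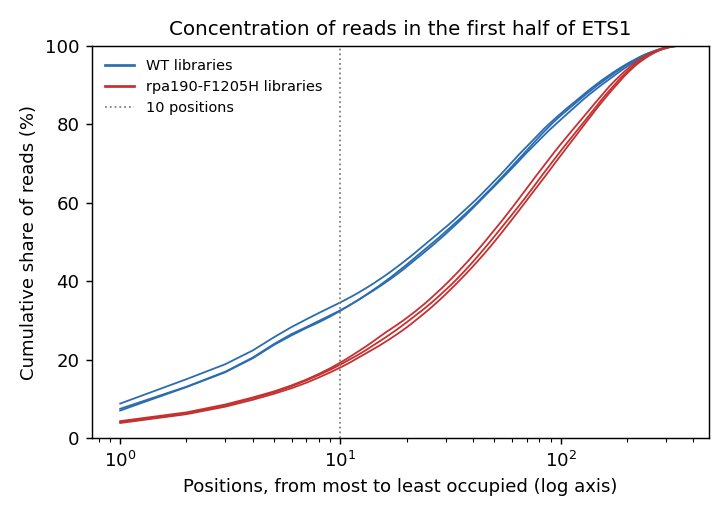
Cumulative share of the segment's reads (%) over positions ranked from most to least occupied in each library (log axis), with 1 line per library. At 10 positions (dotted line) the 3 WT lines lie between 32.5 and 34.6% and the 3 mutant lines between 18.05 and 19.3%.

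Position by position, most of the segment had higher normalized occupancy in the mutant. Of the 346 positions with reads, 293 were called higher and 10 lower in *rpa190-F1205H* by limma on log2(RPM + 1), with Benjamini-Hochberg adjustment over all 6843 positions of the gene with reads. The same test called 40.6% of all positions higher and 33.9% lower. The median log2 fold change was 1.80 over the segment and 0.05 over the gene. Scaled to equal spacer totals, 168 positions of the segment were higher and 83 lower, against 11.6 and 78.6% of the gene, so the number of higher calls depends on the denominator. edgeR on recovered reads with library totals called 294 higher and 11 lower, against 41.2 and 35.9% of the gene. Without regard to a test, the 3 mutant libraries all lay above the 3 WT libraries at 292 positions and below them at 13, where the figures for the gene are 41.8 and 36.2%. The 10 positions with lower occupancy were 98, 102, 113, 163, and 232, described below, and 51, 100, 162, 195, and 260, which are listed after their values were seen. Of these 10, 7 precede a G, as 26.9% of the segment's positions do, and 75 of the 93 tested positions before a G were called higher.

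The share of the segment's reads separated the positions more evenly. After each library was scaled to the same total over the segment, 161 positions had a higher and 89 a lower share in *rpa190-F1205H* (limma, adjusted p under 0.05), and 96 of the tested positions passed in neither direction. Under that scaling 10.9% of all positions of the gene were called higher and 79.7% lower, and the median log2 fold change of all tested positions was -1.55. All 161 positions with a higher share also had a higher level, 51 positions had a higher level but a lower share, and the 10 positions with a lower level had a lower share as well. This nesting largely follows from the scaling: the segment's total was higher in the mutant, so changes in share lie below changes in level. When libraries were instead scaled to the same median over the segment, which no longer measures shares, 105 positions were higher and 144 lower, against 5.32 and 86.6% of the gene, so the balance of the calls turned. Some calls of the same direction formed runs of neighboring positions. The longest run with a higher share was positions 180 to 190, with 2.49% of the WT and 6.78% of the mutant reads, whereas positions 223 to 232 formed the longest with a lower share, with 6.96 and 1.89%.

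**Figure D4:**
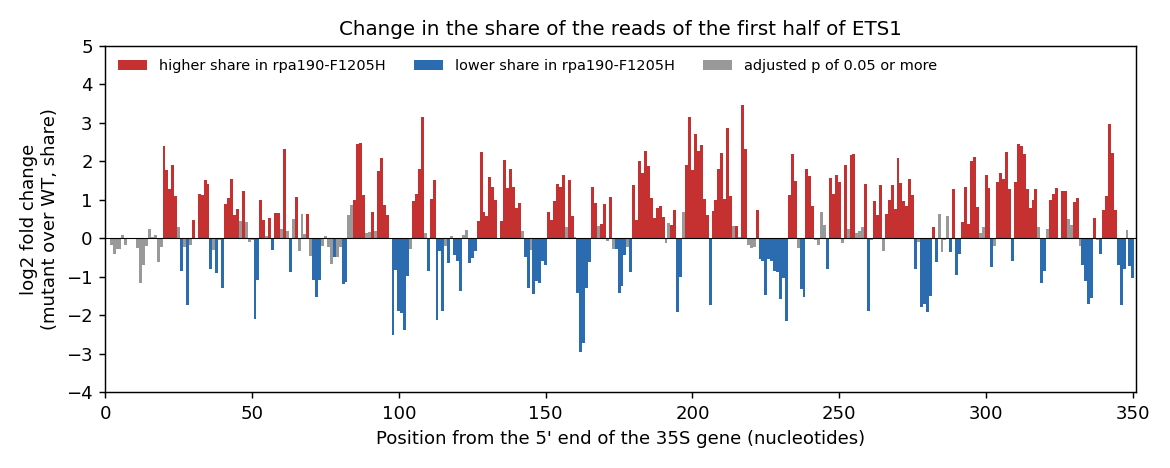
Log2 fold change (mutant over WT, log2 of the rescaled RPM + 1) in the share of the segment's reads at each position; red bars mark a higher and blue bars a lower share in the mutant (limma, adjusted p under 0.05), and gray bars neither. The lowest named value is -2.72 at position 163 and the highest is 3.46 at position 217.

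The strongest WT peak and its neighbors illustrate how close opposite changes lay. Position 102, an A before a G, held 946, 1262, and 894 RPM in WT and 557, 622, and 636 in *rpa190-F1205H*. All mutant libraries were below all WT libraries, with a log2 fold change of -0.76 (SE 0.14; limma adjusted p = 0.00115), and the share fell from 7.81 ± 0.923 to 1.48 ± 0.086%. Position 98, the G at the start of the same GUGGAG stretch, held 454, 545, and 434 RPM in WT and 224, 272, and 275 in the mutant. It was lower in every mutant library, by a log2 fold change of -0.89 (SE 0.13). Together, positions 98 to 103 carried 13.6 ± 1.32% of the segment's reads in WT and 2.88 ± 0.155% in the mutant. A few nucleotides downstream, position 106, an A within the overlapping GAGAGU, held 103, 153, and 96.8 RPM in WT and 710, 859, and 823 in *rpa190-F1205H*. The mutant libraries were all higher, with a log2 fold change of 2.78 (SE 0.17; limma adjusted p = 1.67e-06). At position 108, the U of this stretch, the values were 10.6, 10.8, and 13.3 RPM in WT and 367, 333, and 295 in the mutant. This position, low in WT, was much higher in all 3 mutant libraries, with a log2 fold change of 4.72 and a share that went from 0.09 to 0.81%. At position 113, an A before a G, 162, 199, and 178 RPM in WT compared with 119, 131, and 129 in the mutant. Its level was lower without overlap (log2 fold change -0.50, SE 0.10), so that 2 positions with lower levels, 102 and 113, flank 2 of the rises.

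A second pair of neighbors lay at positions 163 and 166. Position 163, the first G of GGGU, held 317, 370, and 305 RPM in WT and 153, 155, and 154 in *rpa190-F1205H*. The level was lower in all mutant libraries, with a log2 fold change of -1.09 (SE 0.10; limma adjusted p = 1.8e-05), and the share fell from 2.51 to 0.377%. Position 166, the U that ends the same GGGU, held 201, 279, and 181 RPM in WT and 1566, 1707, and 1799 in the mutant. It was the most occupied position of the segment in the mutant, with a log2 fold change of 2.96 (SE 0.16), and its share went from 1.66 ± 0.266 to 4.13 ± 0.243%. Thus 3 nucleotides apart, 1 position had a lower and the other a higher level in every mutant library. Upstream of them, position 144, a C before an A, was among the 5 highest WT positions, with 481, 483, and 451 RPM in WT and 569, 613, and 603 in the mutant. Its level was slightly higher as deposited (log2 fold change 0.34), whereas it was lower with equal spacer totals (-1.22), and its share was lower, with a log2 fold change of -1.30. Position 183, an A before a U, held 80.6, 101, and 90.4 RPM in WT and 907, 894, and 918 in the mutant. It rose in all mutant libraries (log2 fold change 3.32, SE 0.10) within the run of positions 180 to 190.

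Among the largest rises by fold change were 3 positions with very low WT occupancy. They were picked by fold change among positions with a mean of at least 50 RPM over the libraries of both strains. That choice favors positions low in WT, so their low WT values are not a separate finding. Position 217, a C before a U, held 3.90, 3.45, and 4.21 RPM in WT and 146, 151, and 145 in *rpa190-F1205H*. The log2 fold change of 4.93 (SE 0.09; limma adjusted p = 3.35e-08) was the highest of the segment, and the share went from 0.03 to 0.36%. Position 199, the last A of GAAGAA, held 6.74, 4.44, and 6.48 RPM in WT and 165, 179, and 177 in the mutant. Position 212, a U before a G, held 4.26, 3.94, and 3.89 RPM in WT and 85.8, 105, and 116 in the mutant. Neither overlapped between strains, with log2 fold changes of 4.68 and 4.35, and none of the 3 positions was among the 10 most occupied of either strain. Between them and the next cluster of rises stood the second highest WT peak. Position 232, the U that ends AACCU before a G, held 707, 889, and 758 RPM in WT and 517, 551, and 574 in *rpa190-F1205H*. Its level was lower without overlap (log2 fold change -0.51, SE 0.11; limma adjusted p = 0.00258), and its share fell from 5.94 ± 0.302 to 1.34 ± 0.055%.

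In the last windows, the mutant showed peaks at C residues that were low in WT. Position 296, a C before a U, held 52.9, 62.1, and 54.4 RPM in WT and 772, 767, and 740 in *rpa190-F1205H*. It rose in all mutant libraries (log2 fold change 3.73, SE 0.10; limma adjusted p = 3.75e-08) and carried 0.428% of the segment's reads in WT and 1.86% in the mutant. Position 342, a C before a C at the end of GGGGGAAUGC, held 13.1, 15.3, and 11.3 RPM in WT and 366, 326, and 302 in the mutant. This is a log2 fold change of 4.55 (SE 0.13), again without overlap. The run of G residues just before it was already a peak in WT. Position 336, a G within that run, held 437, 501, and 479 RPM in WT and 486, 486, and 526 in *rpa190-F1205H*. These ranges overlapped and no difference passed the test (log2 fold change 0.08, limma adjusted p = 0.452), while with equal spacer totals the log2 fold change was -1.48. The share of position 336 fell from 3.59 ± 0.169 to 1.22 ± 0.053%, and positions 333 to 336, 4 consecutive G residues, went from 4.96 to 1.69%. Position 350, at the end of the segment, had 51.1, 55.7, and 61.5 RPM in WT and 76.1, 89.7, and 86.5 in the mutant. This modest rise as deposited (log2 fold change 0.58) was a fall with equal spacer totals (-0.97).

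**Figure D5:**
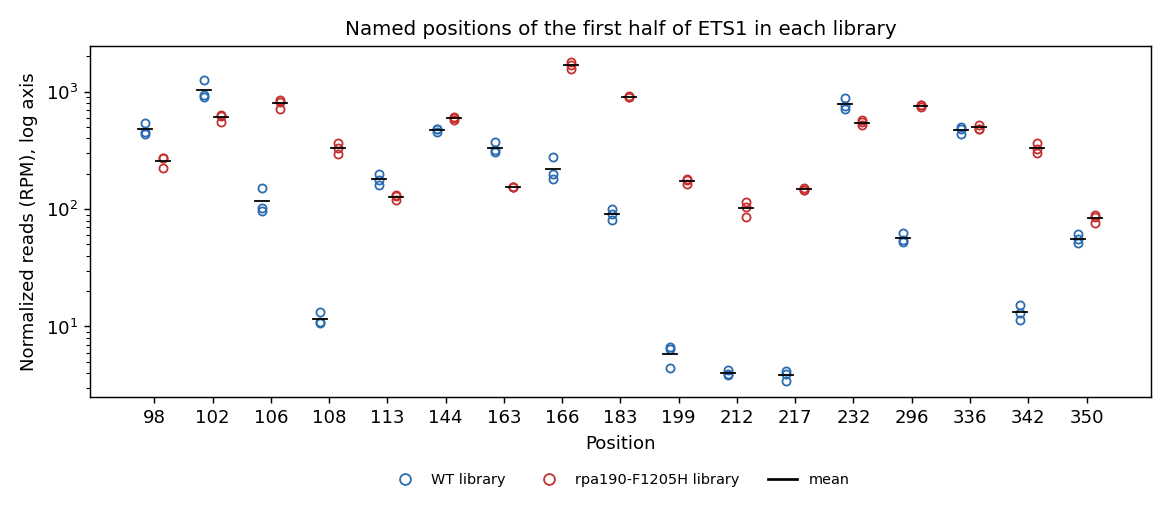
Normalized reads (RPM, log axis) in each library at the 17 named positions with reads, with 1 point per library and a line for the mean of 3 libraries. Positions 98, 102, 113, 163, and 232 are lower in every mutant library, positions 106, 108, 166, 183, 199, 212, 217, 296, and 342 are higher in every mutant library, and both sets keep their direction under each scaling tried, whereas 144 and 350 are higher as deposited and lower with equal spacer totals.

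The identity of the last incorporated nucleotide differed between strains. Reads ending in A or G were 66.3, 65.9, and 65.8% of the segment's reads in WT and 52.7, 54.1, and 55.9% in *rpa190-F1205H*, where A and G make up 53.4% of the 350 positions. The 3 mutant libraries were all below the WT libraries, by 11.8 points between the means, 66.0 ± 0.252 and 54.2 ± 1.58% (SD, n = 3; exact permutation test, p = 0.1). By nucleotide, the share of G went from 30.1 to 21.8% and that of A from 35.9 to 32.4%. Position 102 alone went from 7.81 to 1.48%, a larger fall than that of A as a whole, which therefore rests on this position. The G positions 98, 163, and 336 went from 3.62, 2.51, and 3.59% to 0.627, 0.377, and 1.22%, most of the fall in G. Of 91 tested positions with A, 39 had a higher and 29 a lower share. Of 93 with G, 33 had a higher and 36 a lower share. The share of U went from 21.1 to 26.4% and that of C from 12.9 to 19.3%. None of the 4 overlapped between strains, and each had an adjusted p of 0.1 over the 4 nucleotides in the exact permutation test. As levels, all 4 classes were higher in the mutant as deposited, by 2.25-fold for G, 2.81-fold for A, 3.88-fold for U, and 4.67-fold for C. Without the 4 most occupied positions, reads ending in A or G were 71.8% in WT and 57.6% in the mutant. The fall in A or G was not particular to the segment. It went from 74.6 to 58.7% in the downstream positions of ETS1 and from 70.4 to 57.3% in ITS1. In ITS2 and ETS2 the direction was opposite, from 38.8 to 45.7% and from 23.1 to 57.2%.

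The nucleotide that was to be added next also separated the strains, a measure added after the last nucleotide had been looked at. Reads whose next nucleotide is G were 39.6, 41.5, and 40.4% of the segment's reads in WT and 24.3, 24.6, and 24.6% in *rpa190-F1205H*, where 26.9% of positions precede a G. WT libraries were thus all above that share of positions and mutant libraries all below it, at 40.5 ± 0.960 and 24.5 ± 0.159% (exact permutation test, p = 0.1). Without the 4 most occupied positions the shares were 33.0 and 23.6%. Reads before a C went the other way, from 8.12 ± 0.361 to 15.004 ± 0.436%. In the test of shares at single positions, 27 of the 93 tested positions before a G were higher and 32 lower in the mutant, whereas 34 of 54 before a C were higher and 7 lower, compared with 161 higher and 89 lower of the 346 in all. The same comparison in the other spacers gave other values. Reads before a G went from 30.0 to 23.4% in the downstream positions of ETS1, from 25.8 to 25.4% in ITS1, from 19.3 to 24.7% in ITS2, and from 14.7 to 30.8% in ETS2. In ITS2 and ETS2 the direction was opposite to that of the segment. The strain difference of the segment was 9.36 percentage points more negative than that of the downstream positions (exact permutation test over the libraries, p = 0.1), a p that no comparison of this size can go below.

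Combining both nucleotides, the pair whose share of the segment's reads was higher in the mutant by the most percentage points was C followed by U. The 16 positions of this kind held 3.82, 3.86, and 4.06% of the segment's reads in WT and 9.93, 9.89, and 9.82% in *rpa190-F1205H*, among them positions 217 and 296. Their level went from 32.2 ± 2.21 to 253 ± 2.56 RPM per position as deposited, a 7.85-fold difference, and 14 of the 16 had a higher and 2 a lower share by limma. Much of the rise in share lay at positions 128, 296, and 300, which are among the 10 highest of the mutant. They went from 0.298, 0.428, and 0.478% to 1.41, 1.86, and 1.51%. Over all 346 tested positions of the segment, 161 were higher and 89 lower, and over the gene 10.9 and 79.7%. By level, the fold difference was larger for the 7 positions where C is followed by C, at 10.9-fold, from 14.6 to 159 RPM. The pair whose share was lower by the most points was A followed by G, from 15.9 to 10.01%, with 9 of 26 tested positions higher and 10 lower. Position 102 is of this kind and went from 7.81 to 1.48%, a larger fall than that of the whole pair, which therefore rests on this position. The 20 positions where G is followed by G, position 163 and position 336 among them, held 11.01% in WT and 5.39% in the mutant, and had the smallest fold difference in level, 1.52. Of these, 4 had a higher and 11 a lower share. Most of the fall in points lay at position 163, from 2.51 to 0.377%, and position 336, from 3.59 to 1.22%. The 28 positions where G is followed by U went from 10.9 to 6.003%, with 8 higher and 15 lower. Most of that fall lay at position 98, from 3.62 to 0.627%, and position 115, from 1.77 to 0.476%. The smallest adjusted p over the 16 pairs of nucleotides was 0.107 (exact permutation test), which is the least that this number of libraries and pairs allows.

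The composition of the last 10 nucleotides, about the length held as an RNA-DNA hybrid in a transcribing polymerase, differed between strains by amounts that moved with the length counted and with the positions included. Purines were 56.6 ± 0.450% of these nucleotides over the reads in WT and 57.1 ± 0.058% in *rpa190-F1205H*, against 53.3% over the positions. The libraries did not overlap, but without the 4 most occupied positions the difference of 0.57 points was 0.09 (exact permutation test, p = 0.9), and without WT replicate 3 it was 0.34. Over the last 8 nucleotides it was larger, 1.87 points, with 56.1% in WT and 57.9% in the mutant, without overlap (exact permutation test, p = 0.1). G and C were 46.6 ± 0.170 and 45.8 ± 0.205%, against 42.7% over the positions, so both strains' reads lay at stretches richer in G and C than the segment as a whole. The difference of -0.83 points in G and C was -1.64 over 8 nucleotides. Across positions, Spearman coefficients of occupancy with this G and C content were 0.225 to 0.248 in the 6 libraries, and those with purine content 0.107 to 0.179, over 341 positions that share the overlapping sequence. The predicted folding energy of the 65 nucleotides of RNA ending 15 nucleotides before the 3′ end was -14.8 ± 0.067 kcal/mol over the reads in WT and -15.7 ± 0.015 in the mutant, which is also the mean over the 271 positions that have such a window (-15.7). The strains did not overlap (p = 0.1, exact permutation test), but with a window of 40 nucleotides the difference was 0.03 kcal/mol and of the opposite sign (p = 0.5, exact permutation test). With the window ending 10 nucleotides before the 3′ end it was -0.20 kcal/mol.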

How the data were processed

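Pol I NET-Seq values for 3 WT and 3 *rpa190-F1205H* libraries were taken from a table of the 35S gene. The authors deposited normalized reads (RPM), with each library summing to 1000000 over positions 1 to 6739. Per the labels and methods, a linker with a molecular identifier was ligated to the RNA 3′ end, duplicates were removed, and reads were trimmed (cutadapt 1.12 in the submitters' processing notes), aligned to R64 (STAR 2.7.1a), and reduced to 3′ end coverage. How reads were divided among rDNA copies is not given in the sources used here. The mean, ratio, and p-value columns of the authors' own comparison were not used.

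Whole reads were recovered from the RPM steps: 99.98% of 41148 values were within 0.02 of a whole number. Rows with coordinates 1 to 350 formed the segment. RPM were tested as log2(RPM + 1) with limma 3.58.1 (R 4.3.3) over 6843 positions with reads, Benjamini-Hochberg threshold 0.05, without a replicate block, and again after scaling each library to the same total over the segment. Fold changes on this scale understate those of low positions. Library summaries were compared by two-sided exact permutation tests, and folding energies came from RNAfold 2.7.2. Fits were tested on simulated data. Alternatives comprised other scalings, pseudocounts, filters, an unequal-variance t test, and edgeR 4.0.16 and DESeq2 1.42.0 on recovered reads, where edgeR with library totals called 294 positions higher and 11 lower.

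Positions named were the 5 highest medians per strain, the 5 largest level rises and falls and 3 largest share rises and falls among positions with a mean of at least 50 RPM, an adjusted p under 0.05, and no overlap, and the first and last position. Picking rises by fold change favors positions that are low in WT, so low WT values at positions named this way follow in part from the choice. The positions, lists, and tests were chosen with earlier results of these data known.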

Additional observations from a re-analysis of the deposited data

How the results depend on the processing

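The counts of called positions that moved by over 1.5 times came from other scalings or from an unequal-variance t test with adjustment, where the methods name a t test at each position without stating either. Equal spacer totals gave 168 higher and 83 lower levels in place of 293 and 10, equal medians over the gene gave 18 lower levels (43.8% of all positions), and the unequal-variance t test after Benjamini-Hochberg adjustment gave 5 lower levels (25.5% of all positions; 10 before adjustment). Equal medians over the segment gave 105 positions higher and 144 lower in place of 161 and 89 by share. With equal spacer totals the log2 fold changes of positions 144, 336, and 350 turned to -1.22, -1.48, and -0.97. The calls of positions 102 and 232 by limma did not pass the t test after adjustment (p of 0.0853 and 0.061), nor did position 102 before it (0.0594), and that of position 144 did not pass with equal medians over the gene (limma adjusted p = 0.128). The difference in the log2 ratio to ITS1, -0.07, turned to 0.71 with medians over positions, without overlap between strains, 0.11 without the 4 most occupied positions, and 0.012 with the segment extended to position 400. The difference in folding energy turned to 0.027 kcal/mol with a window of 40 nucleotides and was -0.20 with a distance of 10 nucleotides to the 3′ end. The causes were not tested.

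With each library left out in turn, higher levels numbered 288 to 295, lower levels 8 to 10, higher shares 154 to 168, and lower shares 83 to 92, the difference in purine share of the last 10 nucleotides was 0.34 to 0.79 points (0.34 without WT replicate 3), and that in the log2 ratio to ITS1 -0.13 to -0.03. Libraries with the same replicate number did not deviate together in every pair (correlations of 0.13, 0.03, and 0.20), and the numbers were not treated as a pairing. Correlations between different numbers were -0.16 to 0.03, so the pairs numbered 1 and 3 stood above all of these. With the replicate number as a block, 295 levels were higher and 12 lower, 167 shares were higher and 92 lower, and the paired exact test of the library summaries cannot go below p = 0.25. edgeR with library totals was not run for shares, since it gives no share of the segment, and the segment's total was used as library size after the data were seen, with 158 higher and 89 lower.

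Depth was lower in WT, with a median of 26 to 38 reads per position, so shares of single low positions are least precise there. Each strain has 3 libraries of triplicate cultures, and none of the exact tests could reach 0.05.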
